A study of Mus musculus with 36 samples.

Results

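The livers of C57BL6/J mice housed at 30 °C were compared with those of mice housed at 22 °C, 24 h after an injection of lipopolysaccharide (LPS), the outer-membrane endotoxin of Gram-negative bacteria. The comparison rested on 10 of the 36 liver libraries of the series, 5 titled for 30 °C and 5 titled for 22 °C at 24 h, and on the 8702 genes whose mean signal over the 36 libraries was at least 5. Mice of both groups had received LPS, and no group without LPS at 24 h is among the samples analysed here, so the comparison is between housing temperatures in endotoxin-treated animals. The other 26 libraries came from the same strain at both temperatures at 0, 4 and 12 h. RNA was measured with a tissue version of CEL-Seq2, which reads a short stretch next to the poly(A) tail of each transcript. Whether each library is a different mouse is not stated in the labels, and p-values therefore measure the spread between libraries, which may be technical.

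Laboratory mice at the usual 22 °C spend energy on keeping warm, whereas 30 °C lies near the range in which they need little extra heat production. LPS is sensed through Toll-like receptor signalling and sets off an acute phase response in the liver: hepatocytes secrete defence proteins, interferons switch on guanylate-binding proteins and chemokines, and much of the metabolic programme of the hepatocyte is turned down for a time. The return of that programme marks recovery in this tissue.

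Values are the deposited signal of each gene, and differences are 30 °C minus 22 °C on the scale log2(signal + 1), so that a positive difference is a higher level at 30 °C and differences of low genes are understated. A gene was called where the limma p-value, adjusted by the Benjamini-Hochberg method over all 8702 genes, was under 0.05. Library values are listed in the order of replicates 1 to 5, which carries no ranking.

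The 22 °C libraries held an estimated 779000 to 931000 reads and the 30 °C libraries 710000 to 2295000, a difference in means that the exact two-sided permutation test did not separate (p = 0.063, 0.15 after adjustment over 12 library values). At these depths 3 reads were worth an estimated signal of 3.22 to 4.06 at 22 °C and of 1.51 to 4.35 at 30 °C. By that estimate, lower signals rest on fewer reads than 3. The library sums and the share of signal in mitochondrial genome-encoded transcripts, 7.36 to 9.91% at 22 °C and 7.86 to 10.0% at 30 °C, overlapped. Of the 12 hepatocyte markers all were above 0 in each group, and their summed signal was 20140 ± 2635 at 22 °C and 19820 ± 2430 at 30 °C (SD, n = 5, exact permutation p = 0.83). The like sums hide differences of single markers, of which 4 were called higher and 1 lower at 30 °C. Ttr, the largest, had means of 7989 at 22 °C and 6041 at 30 °C, and Cps1 of 529 and 2292.

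At 24 h, 864 genes were higher at 30 °C (9.93% of those tested) and 758 were lower (8.71%), and 2670 had an unadjusted p under 0.05. The median difference over all tested genes was -0.03. Differences of at least 1 log2 unit were called in 454 genes that were higher and 392 that were lower. The library ranges of the groups did not overlap in 830 of the 1622 called genes. Of all 8702 tested genes, every 30 °C library lay above every 22 °C library in 489, and below in 498. Calls and overlap rest on the same 24 h libraries, so the share among called genes is in part a result of that selection. The distance between the groups was not the same in every library: the 22 °C library that lay nearest to the 30 °C group was replicate 5 for 434 of the 864 higher genes and 310 of the 758 lower genes, and the 30 °C library nearest to the 22 °C group was replicate 4 for 365 and 213.

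**Figure D1:**
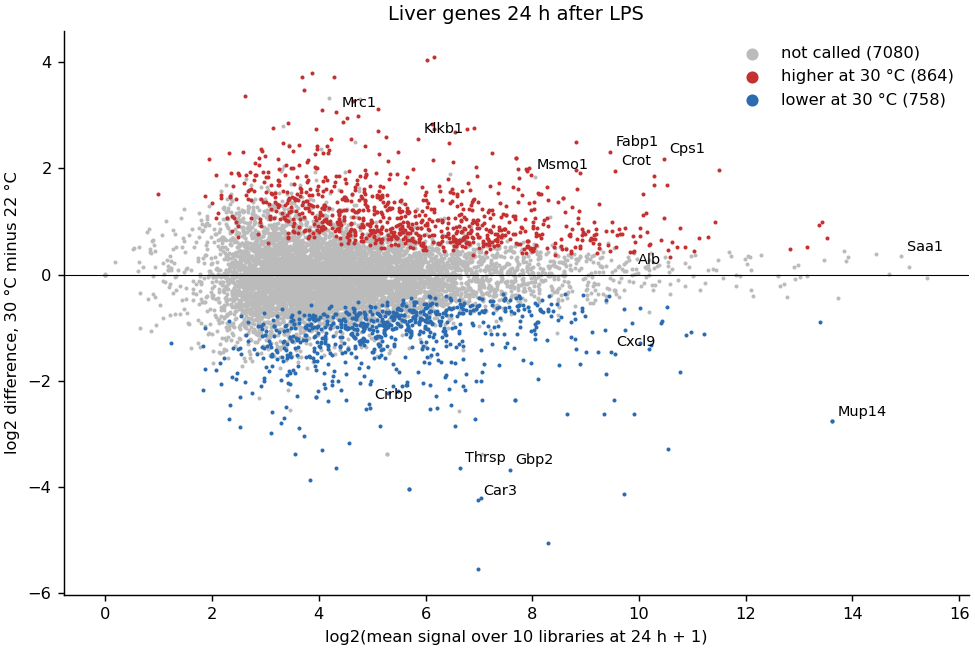
Difference between 30 °C and 22 °C at 24 h (y axis, log2 units) against mean signal over the 10 libraries (x axis, log2 of signal + 1) for the 8702 tested genes, each a point. Red points are the 864 genes called higher and blue points the 758 called lower; Saa1 and Alb, at the right, lie near 0, and Mup14 and Gbp2 lie far below it.

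Genes of the interferon gamma response were lower at 30 °C. Of 28 tested members of that list, which holds the interferon-inducible GTPases with the chemokines and regulators that go with them, 20 were lower and 0 higher, with a median difference of -1.34 beside -0.03 over all genes. Gbp2, a guanylate-binding protein that acts against intracellular microbes (chr3:142620602-142638008 in GRCm38), had a signal of 398, 547, 364, 221 and 237 at 22 °C and of 20.4, 32.0, 30.4, 33.9 and 15.2 at 30 °C. Every 30 °C library lay below every 22 °C library, and the difference was -3.67 ± 0.25 (SE, adjusted p = 3.4e-12).

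Cxcl9, the chemokine that draws in activated T cells through CXCR3 (chr5:92321347-92328079), stood at 1084, 1245, 1117, 747 and 983 at 22 °C and at 475, 391, 373, 257 and 401 at 30 °C. Its groups did not overlap either, and the difference was -1.45 ± 0.15 (SE, adjusted p = 2.8e-08). Gbp6 and Gbp7, of the same GTPase family, differed by -1.996 ± 0.20 and -1.87 ± 0.17 (SE), again with no overlap. Tgtp1, an immunity-related GTPase, read 31.9, 28.6, 27.2, 12.6 and 23.8 at 22 °C and 0.112, 0.103, 0.155, 0.0436 and 8.84 at 30 °C, where 4 of the 5 libraries were under 1 and replicate 5 stood at 8.84. Reads shared between copies of the guanylate-binding and immunity-related GTPase families can be divided among them by the authors' counting, so the value of any single member is uncertain.

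To show what lies before the starts of these genes, the 250 bases upstream of the RefSeq transcription start (GRCm38.p6, 5′ to 3′ on the gene's strand) are given for 4 members named above. The capitals mark matches, on either strand, to GAAANNGAA, a core that interferon regulatory factors are known to bind.
Gbp2: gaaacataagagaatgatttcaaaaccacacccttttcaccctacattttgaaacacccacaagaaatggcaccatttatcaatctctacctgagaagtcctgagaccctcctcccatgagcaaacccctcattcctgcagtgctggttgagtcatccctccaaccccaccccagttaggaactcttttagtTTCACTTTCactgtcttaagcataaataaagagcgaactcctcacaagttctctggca
Gbp7: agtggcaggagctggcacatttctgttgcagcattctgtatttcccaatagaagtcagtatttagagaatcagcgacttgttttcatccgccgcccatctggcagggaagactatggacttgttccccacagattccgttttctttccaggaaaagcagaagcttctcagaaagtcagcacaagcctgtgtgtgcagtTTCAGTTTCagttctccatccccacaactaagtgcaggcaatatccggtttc
Cxcl9: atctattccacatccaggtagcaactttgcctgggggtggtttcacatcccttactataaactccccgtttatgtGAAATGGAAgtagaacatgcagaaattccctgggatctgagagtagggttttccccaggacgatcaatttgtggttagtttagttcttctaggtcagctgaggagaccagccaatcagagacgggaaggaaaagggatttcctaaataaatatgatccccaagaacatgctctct
Tgtp1: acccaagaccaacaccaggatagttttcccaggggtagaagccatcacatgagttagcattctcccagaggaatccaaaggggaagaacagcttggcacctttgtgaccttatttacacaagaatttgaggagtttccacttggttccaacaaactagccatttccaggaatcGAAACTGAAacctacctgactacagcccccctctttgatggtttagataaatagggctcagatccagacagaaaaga

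These windows are chr3:142620413-142620662 (plus strand), chr3:142530086-142530335 (plus), chr5:92328080-92328329 (minus) and chr11:48992247-48992496 (minus), and the match begins 58, 52, 175 and 77 bases before the start. RefSeq windows were found for 17 of the 28 tested members of the list, and 12 of the 17 had a match, among them 10 of the 12 that were called. Counted by window, since a gene can have more than 1, 12 of the 20 windows of these members matched (60%). The share over all 32851 windows of the same length was 7.13%. A match is a description of the letters and not a measured binding site.

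In the lists of type I interferon, MHC class I and NF-kB genes smaller shares of the tested members were called, and those called were lower. Of 39 tested type I interferon genes, 9 were lower and 0 higher (median -0.39), among them Zbp1, a sensor of left-handed nucleic acid that can start necroptosis, with -1.96 ± 0.31 (SE, adjusted p = 1.7e-05). Of 20 tested genes of antigen presentation by MHC class I, 6 were lower and 0 higher, among them Psmb10, a subunit of the immunoproteasome, with -1.93 ± 0.23 (SE, adjusted p = 2.9e-07). Of 28 tested NF-kB targets and feedback regulators, 8 were lower and 0 higher (median -0.48). Socs1, which blocks signalling from interferon receptors, read 134, 142, 162, 37.5 and 75.8 at 22 °C and 16.6, 31.9, 11.6, 25.9 and 34.7 at 30 °C, with the groups apart and a difference of -2.08 ± 0.40 (SE, adjusted p = 0.0003). Stat3, which carries the interleukin-6 signal to acute phase genes, differed by -0.69 ± 0.16 (SE, adjusted p = 0.0019), and Sod2, the mitochondrial superoxide dismutase, by -0.88 ± 0.12 (SE, adjusted p = 1.4e-06). Socs3, the feedback inhibitor of interleukin-6 signalling, was not called, with 0.03 ± 0.29 (SE, adjusted p = 0.96).

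Cytokines and chemokines went both ways, with 5 of 23 tested members higher and 2 lower (median 0.51), beside 9.93% higher and 8.71% lower over all tested genes. Cxcl12, a chemokine of stromal and endothelial cells, read 89.0, 108, 85.9, 98.8 and 194 at 22 °C and 412, 217, 489, 157 and 263 at 30 °C, where 22 °C replicate 5 lay inside the 30 °C range (1.36 ± 0.23 (SE, adjusted p = 6.9e-05)). The other higher members were Ccl4, Ccl7, Ccl9 and Il18bp, and the lower were Cxcl14 and Il33, 6 genes named after their values were seen. The count on the higher side was 1 without 30 °C replicate 5, without the 2 deepest libraries or with depth as a covariate, 2 without 30 °C replicate 1, and 3 without 22 °C replicate 1 or 30 °C replicate 2 or 3.

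The acute phase proteins did not move as a block. Of 34 tested members, 7 were higher and 9 lower, with a median of 0.02. Saa1, serum amyloid A, stood at 25753, 25920.4, 31992, 28482 and 23574 at 22 °C and at 33979, 37211, 29181, 29999 and 43060.5 at 30 °C, overlapping groups that were not called apart (0.35 ± 0.19 (SE, adjusted p = 0.22)), and its reads may be shared with Saa2. Lcn2, which binds bacterial iron carriers, and the antiprotease Serpina3n were not called either, with -0.41 ± 0.21 and 0.09 ± 0.15 (SE). Orm2, an orosomucoid that binds drugs in plasma, was higher at 30 °C, at 2281, 1599, 1749, 1573 and 2474 against 366, 489, 493, 465 and 947, with no overlap and a difference of 1.86 ± 0.24 (SE, adjusted p = 9.9e-07). The pentraxins Crp and Apcs, which bind microbial surfaces, differed by 1.19 ± 0.22 and 1.12 ± 0.22 (SE, adjusted p = 0.00018 and 0.00043), both with overlapping groups. On the lower side, Cd14, the co-receptor that hands LPS to Toll-like receptor 4, read 973, 1279.8, 963, 941 and 876 at 22 °C and 159, 350.1, 212, 764 and 162 at 30 °C. Its 30 °C replicate 4 lay far above the other four 30 °C libraries but still under every 22 °C library, and the difference was -1.88 ± 0.28 (SE, adjusted p = 7.5e-06). Steap4, a metalloreductase induced by inflammation, differed by -1.84 ± 0.25 (SE, adjusted p = 2.0e-06).

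Secreted defence and clotting proteins of the hepatocyte were more often higher. Of 26 tested complement genes, 14 were higher and 1 lower (median 0.72), and of 24 coagulation and fibrinolysis genes 12 were higher and 1 lower (median 0.57). C8a, a chain of the membrane attack complex, read 411, 687, 391, 466 and 1061 at 22 °C and 1921, 1513, 2724, 1179.5 and 2063 at 30 °C, groups that stood apart by 1.69 ± 0.25 (SE, adjusted p = 5.8e-06). Hc, complement component C5, differed by 1.33 ± 0.24 (SE, adjusted p = 0.00017), from levels near 3 reads at 22 °C. Klkb1, plasma prekallikrein of the contact pathway, was 8.31, 15.2, 13.4, 14.1 and 20.6 at 22 °C and 146, 46.7, 173, 44.9 and 86.6 at 30 °C, a difference of 2.55 ± 0.30 (SE, adjusted p = 1.5e-07) with replicates 1 and 3 the highest of the 30 °C group. Serpind1, heparin cofactor II, and F9, clotting factor IX, differed by 1.80 ± 0.31 and 0.89 ± 0.16 (SE, adjusted p = 7.3e-05 and 0.00015). Without the 2 deepest 30 °C libraries, replicates 2 and 5, the coagulation count was 7 in place of 12.

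Among 31 tested plasma carriers, 11 were higher and 1 lower (median 0.18). Rbp4, which carries retinol, differed by 0.81 ± 0.15 (SE, adjusted p = 0.00019). Albumin, the most abundant plasma protein, was not called: Alb read 823, 1094, 746, 790.1 and 1031 at 22 °C and 1312, 850.1, 1114, 697 and 884 at 30 °C, overlapping groups with a difference of 0.10 ± 0.14 (SE, adjusted p = 0.68). The lower member was Serpina6, the corticosteroid-binding globulin, with 23.9, 61.2, 22.5, 27.6 and 12.7 at 22 °C and 2.43, 2.11, 0.848, 1.12 and 2.65 at 30 °C. All 5 of its 30 °C values were small, 2 of them under the worth of 3 reads, and the difference was -3.30 ± 0.34 (SE, adjusted p = 2.0e-08).

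The lists with the most members higher at 30 °C were metabolic. Of 56 tested genes for urea formation and amino acid breakdown, 34 were higher and 2 lower (median 0.87). Cps1, the mitochondrial enzyme that commits ammonia to the urea cycle (chr1:67123026-67231259), read 472, 388, 431, 432 and 925 at 22 °C and 2426, 1938, 2294, 1997 and 2806 at 30 °C. The lowest 30 °C library was above the highest 22 °C library, which was replicate 5, and the difference was 2.18 ± 0.23 (SE, adjusted p = 2.6e-08). Hal and Amdhd1, enzymes of histidine breakdown, differed by 1.65 ± 0.22 and 1.66 ± 0.19 (SE), Gls2, the liver glutaminase, by 1.46 ± 0.23, and Kmo, of the kynurenine pathway of tryptophan, by 1.13 ± 0.15, each without overlap of the groups. The lower members of the list were Otc and Cdo1.

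**Figure D2:**
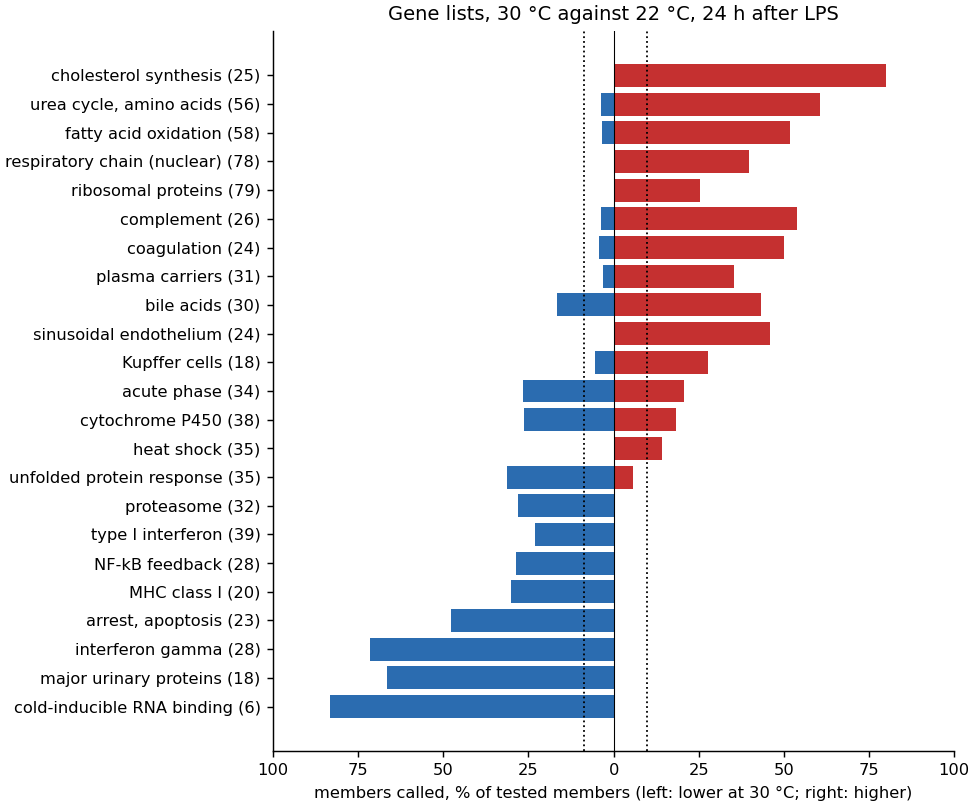
Share of tested members called lower (blue, to the left) or higher (red, to the right) at 30 °C, in percent, for 23 gene lists with the number tested in brackets. Dotted lines mark the shares over all tested genes, 8.71% lower and 9.93% higher; cholesterol synthesis reaches furthest to the right with 20 of 25, and the cold-inducible list furthest to the left with 5 of 6.

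Fatty acid oxidation and ketone synthesis followed, with 30 of 58 tested members higher and 2 lower (median 0.68). Fabp1, the fatty acid carrier of the hepatocyte cytosol, read 221, 271, 138, 173 and 380.5 at 22 °C and 976, 793, 1713, 827 and 1502 at 30 °C, with every 30 °C library above the 22 °C range and a difference of 2.31 ± 0.27 (SE, adjusted p = 1.5e-07). Crot, the peroxisomal carnitine octanoyltransferase, stood at 251.8, 271, 266, 325 and 423 at 22 °C and 1068, 891, 1743, 1251 and 1045 at 30 °C, also without overlap (1.95 ± 0.21 (SE, adjusted p = 3.6e-08)). Eci1, a mitochondrial enoyl-CoA isomerase, differed by 1.55 ± 0.21 (SE, adjusted p = 1.8e-06). Cpt1a, which admits long-chain fatty acids to mitochondria, was not called, with 0.05 ± 0.24 (SE, adjusted p = 0.92). Ppargc1a, a coactivator of oxidative genes, was 9.26, 12.8, 11.9, 23.7 and 20.7 at 22 °C and 14.2, 46.9, 36.2, 41.2 and 24.5 at 30 °C, overlapping and not called (0.98 ± 0.45 (SE, adjusted p = 0.14)), as was the hormone gene Fgf21 (-1.02 ± 0.58 (SE, adjusted p = 0.24)).

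Nuclear genes of the respiratory chain and ATP synthase were higher in 31 of 78 tested members and lower in 0 (median 0.42), in small steps. Atp5c1, a subunit of the ATP synthase rotor, was 457, 529, 460.3, 680.2 and 705 at 22 °C and 1058, 950.4, 1128, 878 and 1072 at 30 °C, apart by 0.86 ± 0.14 (SE, adjusted p = 2.0e-05), and Ndufa6, of complex I, differed by 1.05 ± 0.19 (SE, adjusted p = 0.00012). Without 30 °C replicates 2 and 5 the count was 17 of 78. In the citric acid cycle list 5 of 20 were higher and 2 lower, with Ogdh, the 2-oxoglutarate dehydrogenase subunit, at 0.97 ± 0.19 (SE, adjusted p = 0.00038). Cytosolic ribosomal proteins were higher in 20 of 79 and lower in 0 (median 0.34). Rpl14 of the large subunit differed by 0.72 ± 0.15 (SE, adjusted p = 0.00057). That ribosomal count was 11 without 30 °C replicate 5, 13 without 30 °C replicate 3, 12 without 22 °C replicate 2 or replicate 3, and 5 without the 2 deepest libraries.

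Cholesterol synthesis and uptake was the list with the highest share on the higher side, 20 of 25 tested members and 0 lower (median 1.21). Msmo1, a sterol methyl oxidase late in the pathway, read 101.2, 57.5, 88.9, 149.9 and 154 at 22 °C and 349, 330.0, 425, 327 and 520.5 at 30 °C, groups that did not overlap (1.88 ± 0.23 (SE, adjusted p = 4.5e-07)). Hmgcs1, the cytosolic synthase ahead of HMG-CoA reductase, read 169.8, 124, 146, 281 and 275 and 785, 550.4, 743, 449.7 and 1249, a difference of 1.91 ± 0.28 (SE, adjusted p = 5.3e-06).

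Sterol regulatory element binding proteins are the known activators of this pathway, and the motif TCACNCCAC, a form of the element they are known to bind, was searched on both strands of the same 250-base windows. RefSeq windows were found for 17 of the 25 tested members, and Hmgcs1 alone among the 17 had a match. Counted by window, 1 of their 20 windows matched (5%), beside 1.05% of all 32851 windows. The Hmgcs1 window, chr13:119690101-119690350 on the plus strand, is shown with the match in capitals, beginning 137 bases before the start.
Hmgcs1: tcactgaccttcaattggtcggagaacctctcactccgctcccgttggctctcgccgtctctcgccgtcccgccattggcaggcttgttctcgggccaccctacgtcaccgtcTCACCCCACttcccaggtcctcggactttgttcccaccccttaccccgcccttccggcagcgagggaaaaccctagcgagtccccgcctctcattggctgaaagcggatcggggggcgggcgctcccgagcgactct

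In the fatty acid and triglyceride synthesis list 6 of 25 tested members were higher and 3 lower (median 0.34), beside 9.93% higher and 8.71% lower over all tested genes. Elovl2, which elongates polyunsaturated fatty acids, read 119, 135, 155, 230.2 and 304 at 22 °C and 776, 574, 787, 929 and 488 at 30 °C, without overlap (1.96 ± 0.23 (SE, adjusted p = 1.8e-07)). Insig2, an endoplasmic reticulum protein that holds back the activation of sterol regulatory element binding proteins, was higher by 1.35 ± 0.24 (SE, adjusted p = 0.00012), without overlap. The elongase Elovl6 and the desaturase Fads1 were higher by 1.20 ± 0.28 and 0.88 ± 0.19 (SE). The lower members included the 2 widest differences of the list. Thrsp, the thyroid hormone-responsive spot 14 protein of lipogenic tissue, read 139.8, 196, 280.2, 153 and 148 at 22 °C and 13.8, 12.6, 9.15, 9.07 and 28.6 at 30 °C, with all 30 °C values far below and replicate 5 the highest among them (-3.63 ± 0.36 (SE, adjusted p = 1.1e-08)). Scd1, the desaturase that makes monounsaturated fatty acids, was 1301, 1717, 1205, 1218 and 754 at 22 °C and 172, 250.2, 199, 264 and 296 at 30 °C (-2.36 ± 0.34 (SE, adjusted p = 6.1e-06)). In the bile acid list 13 of 30 were higher and 5 lower (median 0.56), beside the same shares over all tested genes. The bile salt export pump Abcb11 differed by 1.94 ± 0.29 (SE, adjusted p = 9.0e-06), with 30 °C replicate 4 inside the 22 °C range. Slco1b2, a sinusoidal uptake carrier for bile acids and drugs, was 20.1, 17.0, 21.4, 17.3 and 65.4 at 22 °C and 251, 126, 299, 72.2 and 199 at 30 °C (2.75 ± 0.33 (SE, adjusted p = 3.1e-07)). Cyp27a1, of the acidic synthesis pathway, and Baat, which conjugates bile acids, were lower, by -1.10 ± 0.20 and -0.69 ± 0.15 (SE). Cyp7a1, which starts the classical path from cholesterol to bile acids, was at or near 0 in both groups, with 0 in 4 of the 5 libraries at 22 °C and at most 4.49 at 30 °C. The bile acid counts were 8 higher and 3 lower without the 2 deepest libraries, and 3 lower without 22 °C replicate 1, 22 °C replicate 2, 30 °C replicate 4 or 30 °C replicate 5.

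**Figure D3:**
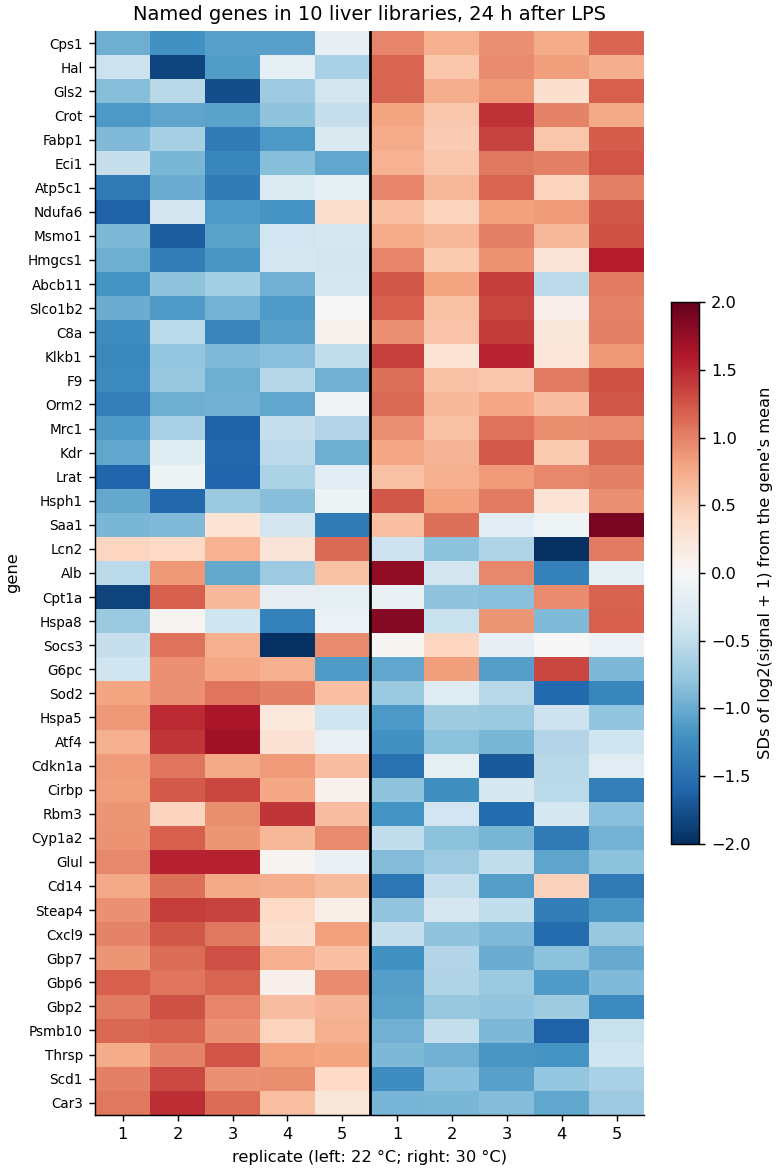
Log2(signal + 1) of 45 named genes in the 10 libraries, as SDs from each gene's mean over the 10 (colour bar); columns are replicates 1 to 5 at 22 °C, then at 30 °C. Metabolic and secreted-protein genes at the top are red in the 30 °C columns, and interferon and stress genes in the lower part are blue there. The metabolic genes Cyp1a2, Glul, Thrsp, Scd1 and Car3 are also in the lower part and blue at 30 °C. Saa1, Alb, Cpt1a and Socs3 in the middle were not called.

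Genes of glucose handling were mixed, with 7 of 35 tested members higher and 4 lower, beside 9.93% higher and 8.71% lower over all tested genes. Slc2a2, the glucose transporter GLUT2 of the hepatocyte surface, was 5.83, 5.23, 11.0, 11.2 and 19.0 at 22 °C and 81.7, 75.8, 59.4, 37.4 and 64.3 at 30 °C, with no overlap (2.58 ± 0.28 (SE, adjusted p = 4.6e-08)). Pck1, the committing enzyme of gluconeogenesis, differed by 1.15 ± 0.26 (SE, adjusted p = 0.0018). G6pc, which releases free glucose at the end of that path, was not called, with -0.18 ± 0.38 (SE, adjusted p = 0.8), nor was the insulin-repressed Igfbp1, with -0.21 ± 0.39 (SE, adjusted p = 0.76). In the separate list of glycolysis and hypoxia-responsive genes, 2 of 28 tested members were higher, 4 lower and 22 not called (median 0.16). Among the lower members, Hif1a, the hypoxia-inducible factor, and Pfkfb3, a glycolytic activator, differed by -1.35 ± 0.23 and -1.33 ± 0.29 (SE, adjusted p = 6.9e-05 and 0.0012), with overlapping groups. The lower count of the glucose list was 1 without 22 °C replicate 2 and 2 without 22 °C replicate 3 or 30 °C replicate 1.

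Cold-inducible RNA-binding proteins, which rise when body or culture temperature drops, were lower at 30 °C in 5 of the 6 tested members (median -1.26). Cirbp read 46.3, 68.1, 76.1, 43.0 and 21.2 at 22 °C and 8.24, 5.07, 13.9, 11.0 and 4.23 at 30 °C, and the groups did not overlap (-2.44 ± 0.36 (SE, adjusted p = 6.7e-06)). Rbm3, of the same family, read 409.5, 356, 415, 487 and 376 and 212, 274, 189.6, 278 and 238, apart by -0.78 ± 0.18 (SE, adjusted p = 0.0021), and the related splicing regulator Hnrnpdl differed by -1.37 ± 0.23 (SE, adjusted p = 6.3e-05). Among 35 tested heat shock proteins and co-chaperones, 5 were higher and 0 lower (median 0.19), beside 9.93% higher and 8.71% lower over all tested genes. Hsph1, a large HSP110 chaperone, was 4.12, 2.30, 5.47, 4.90 and 9.85 at 22 °C and 31.4, 21.5, 26.5, 13.7 and 23.8 at 30 °C (2.01 ± 0.31 (SE, adjusted p = 1.3e-05)). Fkbp4, a co-chaperone of HSP90, differed by 1.90 ± 0.36 (SE, adjusted p = 0.00028), Hspe1, the mitochondrial chaperonin cofactor, by 0.85 ± 0.19 (SE, adjusted p = 0.0012), and the inducible Hspa1b, whose reads may be shared with its near-identical neighbour, by 2.74 ± 0.46 (SE, adjusted p = 4.5e-05). Hspa8, the constitutive member, was not called, with 0.47 ± 0.21 (SE, adjusted p = 0.11). Thyroid and adrenergic responsive genes were higher in 3 of 12 tested members and lower in 3 (median 0.24). That higher count was 1 without 22 °C replicate 3 or 30 °C replicate 3. Adra1b, an adrenergic receptor that receives sympathetic signals, was 4.66, 1.23, 7.67, 15.0 and 1.35 at 22 °C and 66.5, 23.5, 66.7, 24.0 and 45.2 at 30 °C (2.99 ± 0.46 (SE, adjusted p = 1.7e-05)). Body temperature is not among the values analysed here.

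Stress and damage genes were lower in part. In the unfolded protein response list 11 of 35 tested members were lower and 2 higher (median -0.33). Hspa5, the chaperone BiP of the endoplasmic reticulum, was 1150.2, 1547, 1651, 846 and 635 at 22 °C and 443, 544, 538, 626 and 526 at 30 °C (-1.04 ± 0.22 (SE, adjusted p = 0.00068)), and Atf4, the transcription factor of the integrated stress response, differed by -1.06 ± 0.20 (SE, adjusted p = 0.00023). Of 23 growth arrest and apoptosis genes 11 were lower and 0 higher (median -0.89), a count of 7 without 22 °C replicate 2. Cdkn1a, the p21 inhibitor of cyclin-dependent kinases, was 337, 394, 318, 338 and 287 at 22 °C and 68.7, 167, 60.7, 129.9 and 164 at 30 °C (-1.61 ± 0.30 (SE, adjusted p = 0.00021)). Proteasome subunits were lower in 9 of 32 and higher in 0, with Psmd3 of the regulatory cap at -0.90 ± 0.17 (SE, adjusted p = 0.00019), and that count was 4 without 30 °C replicate 1 and 5 without 22 °C replicate 2.

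Drug metabolism was divided. Of 38 tested cytochrome P450 genes 7 were higher and 10 lower, and of 54 other detoxification genes 11 were higher and 11 lower. Cyp1a2, which oxidises caffeine and aromatic amines near the central vein, read 200.3, 274, 199, 159 and 210.2 at 22 °C and 47.4, 33.3, 30.4, 17.7 and 29.4 at 30 °C (-2.72 ± 0.25 (SE, adjusted p = 1.9e-09)). Gstp1, a glutathione transferase, was higher, at 392, 362, 336, 258 and 329 against 71.7, 69.5, 41.6, 78.2 and 119 (2.19 ± 0.21 (SE, adjusted p = 5.2e-09)), and Gsta4, which clears lipid aldehydes, lower by -2.49 ± 0.35 (SE, adjusted p = 4.0e-06). Reads of the Cyp2c, Cyp3a and glutathione transferase families can be shared between members. The higher P450 count was 4 without 22 °C replicate 1, 22 °C replicate 3 or 30 °C replicate 1, and 3 without 30 °C replicate 5. By position in the lobule, 10 of 19 periportal genes were higher and 0 lower, among them the amino acid enzymes Cps1, Hal, Uroc1 and Gls2 counted above, while 3 of 16 pericentral genes were higher and 5 lower. Over all tested genes 9.93% were higher and 8.71% lower. Glul, the glutamine synthetase of the last hepatocytes around the central vein, was 67.9, 107, 107, 32.8 and 28.1 at 22 °C and 15.7, 17.5, 21.1, 13.3 and 16.2 at 30 °C (-1.78 ± 0.29 (SE, adjusted p = 4.4e-05)). The higher pericentral count was 1 without 22 °C replicate 3, 30 °C replicate 1, 30 °C replicate 3 or 30 °C replicate 5.

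Markers of other liver cells also differed. Of 29 sinusoidal endothelial markers 24 were tested, and 11 were higher and 0 lower (median 0.95), with a summed signal of 352 to 650.5 at 22 °C and 630.1 to 896 at 30 °C (exact permutation p = 0.016, 0.095 after adjustment over 12 library values). The other 13 were not called. Among them, Pecam1, Lyve1 and Cdh5 had means of 64.3, 37.5 and 11.6 at 22 °C and lower ones of 58.2, 24.5 and 8.28 at 30 °C. In bulk tissue, fewer cells of a type and less RNA per cell cannot be told apart. Mrc1, the mannose receptor that clears glycoproteins, was 2.14, 4.53, 0.753, 5.91 and 4.98 at 22 °C and 34.4, 23.2, 42.6, 35.2 and 36.1 at 30 °C (3.06 ± 0.46 (SE, adjusted p = 1.0e-05)), and Kdr, the receptor for vascular endothelial growth factor, was 0.785, 3.32, 0, 2.17 and 0.912 and 12.1, 10.9, 20.5, 9.04 and 19.0 (2.76 ± 0.46 (SE, adjusted p = 5.1e-05)). Clec4g, a lectin of these cells, was listed at 0 in all 5 libraries at 22 °C and at 6.78, 10.5, 20.5, 6.25 and 7.10 at 30 °C, and Ehd3 differed by 3.80 ± 0.31 (SE, adjusted p = 1.6e-10) from 22 °C levels of at most 3.26. The 22 °C levels of these 4 genes were at most 5.91, and the shallowest 30 °C library, replicate 3, had the highest value of each. The endothelial count was 7 without 22 °C replicate 2 and 7 without the 2 deepest libraries.

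Of 18 tested Kupffer cell markers 5 were higher and 1 lower. Over all tested genes, the background for each marker count in this paragraph, 9.93% were higher and 8.71% lower. The summed signal of the Kupffer cell markers was 1234 ± 147 at 22 °C and 651 ± 235 at 30 °C (SD, n = 5, exact permutation p = 0.0079, the smallest possible, and 0.095 after adjustment). Of those sums Cd14, which hepatocytes also make under LPS, contributed a mean of 1007 and 329. Cd14 was the 1 lower member, and the lower sum at 30 °C rests on it and does not describe the other markers. Lyz2, lysozyme of macrophages and neutrophils, was 14.0, 6.15, 9.86, 13.9 and 19.0 at 22 °C and 64.4, 43.9, 98.6, 26.8 and 31.2 at 30 °C (1.91 ± 0.41 (SE, adjusted p = 0.00098)). Stellate cell markers were higher in 4 of 15, with Lrat, which stores retinol as esters, at 0, 4.92, 0, 2.14 and 4.06 and 12.5, 14.4, 17.4, 20.1 and 21.1 (2.84 ± 0.45 (SE, adjusted p = 1.9e-05)), and their summed signal was 649 ± 75.5 at 22 °C and 825 ± 119 at 30 °C (SD, n = 5, exact permutation p = 0.032, 0.13 after adjustment). Of 17 tested neutrophil and monocyte markers 4 were higher and 1 lower, with sums of 5711 to 7265 at 22 °C and 3745 to 7153 at 30 °C. Most of those sums was Lcn2, described with the acute phase proteins above, with a mean of 5082 at 22 °C and 3935 at 30 °C. The granule genes Elane and Prtn3 were at 0 in all 10 libraries. Other markers of the list were above 0 in every library, among them S100a8 (means 99.2 at 22 °C and 159 at 30 °C), Cxcr2 (17.4 and 17.2) and Ngp (23.1 and 7.80). Without the 2 deepest libraries the counts on the higher side were 2 for Kupffer cells and 2 for neutrophils and monocytes. Only 3 lymphocyte and 3 bile duct markers reached the level tested, and 0 of them were called. The part of cell numbers in the differences above was not tested.

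The single genes with the widest differences came from several of these groups. On the lower side the 12 genes picked by size held 5 major urinary proteins (Mup12, Mup7, Mup18, Mup17 and Mup19) with Car3, Tgtp1, Gbp2, Tnfrsf23, Thrsp, Serpina6 and Hbp1. Car3, the carbonic anhydrase of muscle, fat and liver (chr3:14863512-14872523), was 251, 498, 279, 118 and 63.3 at 22 °C and 8.52, 8.88, 9.51, 7.07 and 12.5 at 30 °C, with the groups far apart (-4.25 ± 0.34 (SE, adjusted p = 1.5e-10)). Tnfrsf23, a decoy receptor of the TNF family, and Hbp1, a transcriptional repressor, differed by -3.64 ± 0.40 and -3.16 ± 0.63 (SE), with 3 of the 5 values of each at 30 °C under the worth of 3 reads. On the higher side 11 of the 12 were Cacna1d, Ehd3, Enho, Ppp1r3c, Tnfaip8l1, Rad51b, Slc3a1, Mrc1, Adra1b, Fam167b and Il17rb, and each of the 11 had at least 1 library at 22 °C under the worth of 3 reads.

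Enho, which encodes the secreted peptide adropin, was 0, 3.69, 0, 2.14 and 5.42 at 22 °C and 47.8, 16.2, 42.0, 19.2 and 48.8 at 30 °C (3.71 ± 0.47 (SE, adjusted p = 7.0e-07)). Ppp1r3c, which targets phosphatase 1 to glycogen, was 0 in 4 of 5 libraries at 22 °C and 33.9, 12.6, 39.1, 2.87 and 25.1 at 30 °C (3.71 ± 0.54 (SE, adjusted p = 5.8e-06)). Cacna1d, a voltage-gated calcium channel, differed by 4.03 ± 0.80 (SE, adjusted p = 0.00043). Rad51b, of DNA repair, Tnfaip8l1, Fam167b and Il17rb, a receptor chain for interleukin-25, differed by 3.26 ± 0.42, 3.48 ± 0.55, 2.95 ± 0.66 and 2.87 ± 0.61 (SE). Slc3a1, a subunit of a cystine carrier, differed by 3.09 ± 0.91 (SE, adjusted p = 0.015), but 30 °C replicate 4 was at 0, and the call ended without 30 °C replicate 1 (adjusted p = 0.054) or replicate 5 (adjusted p = 0.061), without both deepest libraries (adjusted p = 0.16) and with depth as a covariate (adjusted p = 0.11).

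The major urinary proteins, pheromone carriers made by the liver and shed in urine, were lower in 12 of 18 tested members (median -2.80). Mup14 read 24394, 24983, 16844, 17227 and 25082 at 22 °C and 4389.9, 1993, 4352, 1782 and 4660.3 at 30 °C, and Mup17 read 2121, 1349, 1259.7, 1318 and 1922 and 130.4, 54.5, 103, 51.0 and 141, both without overlap (-2.75 ± 0.34 and -4.13 ± 0.46, SE). These genes are near-identical copies whose reads can be divided between them. The difference was present before LPS as well: at 0 h Mup14 differed by -3.01 ± 0.36 and Mup17 by -3.96 ± 0.49 (SE, adjusted p = 5.4e-06 for both), and the 24 h difference minus the 0 h difference was 0.26 ± 0.50 and -0.17 ± 0.67 (SE, adjusted p = 0.81 and 0.92). In all, 0 of the 18 passed the test of that change.

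Far fewer genes were called before LPS. At 0 h 44 of 8702 genes were called (0.506%), against 1622 at 24 h. The change in the difference from 0 to 24 h, tested as an interaction, passed in 779 genes (8.95%), 441 with a larger 30 °C minus 22 °C value at 24 h and 338 with a smaller. Of the 1622 genes called at 24 h, 660 passed it, with the sign they had at 24 h, and for the other 962 a change from 0 h was not shown. It passed for 20 of the 25 cholesterol genes, 29 of the 56 amino acid genes, 18 of the 58 fatty acid oxidation genes, 17 of the 78 respiratory genes and 15 of the 28 interferon gamma genes. For Gbp2 the change was -3.20 ± 0.36 (SE, adjusted p = 9.6e-07), for Cps1 2.56 ± 0.33 (SE, adjusted p = 1.1e-05) and for Fabp1 2.26 ± 0.39 (SE, adjusted p = 0.00027). It did not pass for Rbm3 (-0.68 ± 0.26 (SE, adjusted p = 0.1)), and 0 of the 79 ribosomal protein genes passed it.

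Several sterol genes changed sides. Msmo1 had been lower at 30 °C before LPS, at 107 ± 24.8 against 312 ± 74.6 (SD, n = 5 and 4), a difference of -1.53 ± 0.25 (SE, adjusted p = 0.00053), and the change to 24 h was 3.41 ± 0.34 (SE, adjusted p = 1.0e-07). Of the 36 genes lower at 30 °C at 0 h, 9 were higher at 24 h, among them Msmo1, Sqle, Cyp51 and Idi1 of cholesterol synthesis, and 16 were lower at both times.

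At 12 h 371 genes were called (4.26%), 85 higher and 286 lower at 30 °C. Of those 286, 64 were higher at 24 h, 76 were lower at both times and 146 were not called at 24 h, while of the 85 higher at 12 h 22 were higher again and 0 had become lower. Fabp1 passed through such a turn: its mean signal at 22 °C was 2471 at 0 h, 1024 at 12 h and 237 at 24 h, and at 30 °C it was 2489, 299.9 and 1162. The 30 °C livers were lower at 12 h (-1.67 ± 0.28 (SE, adjusted p = 0.00039)) and higher at 24 h. Klkb1 and the peroxisomal catalase gene Cat took the same course, with 12 h differences of -1.73 ± 0.31 and -1.43 ± 0.29 (SE) and 24 h differences of 2.55 ± 0.30 and 1.28 ± 0.27.

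Cps1 took another course. Its mean at 22 °C was 2872 at 0 h, 1128 at 12 h and 529 at 24 h, and at 30 °C 2252, 846 and 2292, so the 30 °C value at 24 h stood near its own value at 0 h while the 22 °C value was the lowest of the series. Gbp2 ran the other way, from 39.0 at 0 h through 1488 at 4 h and 1159.8 at 12 h to 353 at 24 h at 22 °C, and from 29.9 through 1467 and 765 to 26.4 at 30 °C. Its temperature difference was -0.60 ± 0.27 (SE, adjusted p = 0.23) at 12 h, not called, before that at 24 h. Changes over time within a temperature are given as values and were not tested.

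**Figure D4:**
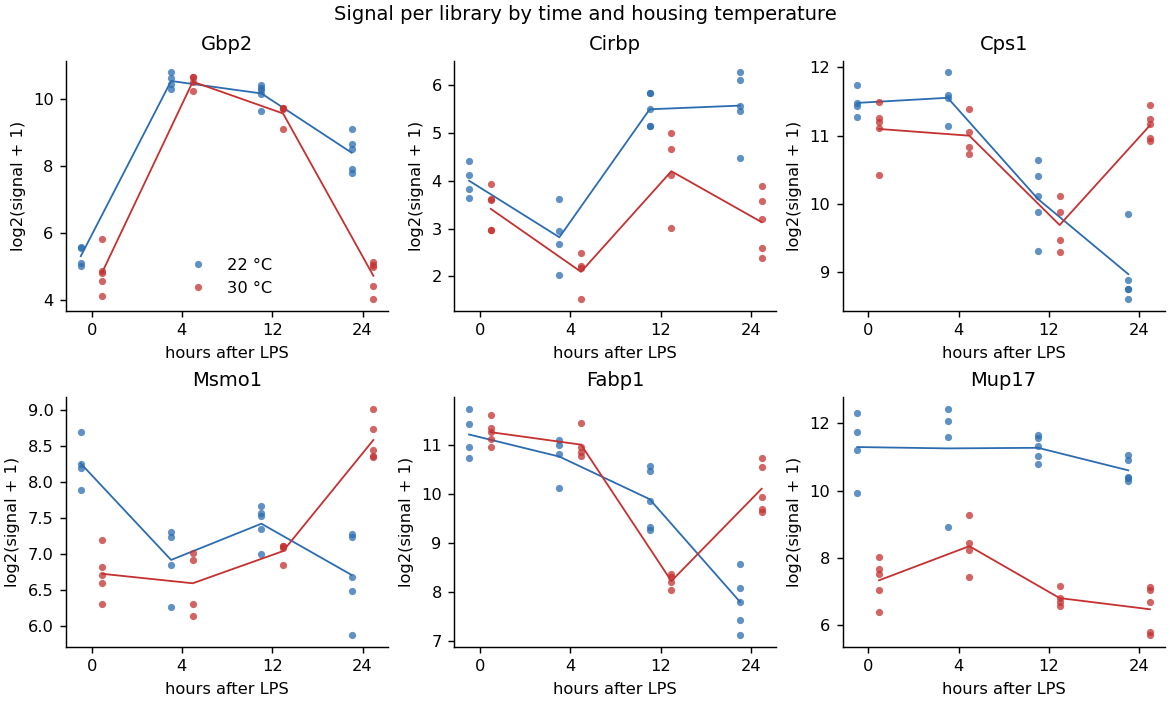
Log2(signal + 1) per library (points) and its mean (lines) at 0, 4, 12 and 24 h after LPS for 6 genes, at 22 °C (blue) and 30 °C (red). At 24 h Gbp2 and Cirbp are lower and Cps1, Msmo1 and Fabp1 higher at 30 °C, while Mup17 is lower at 30 °C at every time.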

How the data were processed

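The deposited table held kallisto-based values for 36 liver libraries, and its column of scaled reads per base was used. Per the submitters' processing notes the tools were Trimmomatic, kallisto and sleuth; no source used here gives their versions, the index, the genome build or how molecular identifiers were handled. The values are a signal normalized by the authors across libraries, not counts, so no count model was run. Read numbers were estimated as the summed signal of each library divided by a step of its values, taken as the worth of a read. That step was not the smallest value: Tgtp1 stood at 0.0436 in 30 °C replicate 4 at 24 h, where the step was 0.958. The share of whole multiples of the step was 16.8 to 19.6% over the 36 libraries, so read numbers are approximate. Names and positions came from GENCODE M21 (GRCm38), and promoter windows from RefSeq (GRCm38.p6).

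Genes averaging at least 5 over the libraries, 8702 in all, were kept, and log2(signal + 1) was fitted with limma 3.58.1 in R 4.3.3 (eBayes with trend), 1 mean per temperature and time over all 36 libraries; two-sided p-values were adjusted by the Benjamini-Hochberg method, threshold 0.05. Single library values were compared by exact permutation tests (scipy 1.17.1), whose smallest p is 0.0079 with 5 against 5. The script was tested on simulated data. Gene lists are described by counts and medians, with no test of the list. The members and lists were chosen with earlier results of these data known.

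Genes were named by rule: the 12 largest differences in each direction among called genes that averaged at least 20 in whichever group was higher (leaving out gene models, pseudogenes and genes with identical values), the 4 of smallest p from each list with at least 3 called in a direction, and 18 genes followed whatever they did. The rule gave 211 genes, 199 of them called. The call of 152 held under all 26 alternative settings and that of 47 was lost under at least 1. Genes from the lists were described with values only if they were among the 152, so the stability of the described genes is a result of that choice and supports nothing. Of the alternatives, 24 were planned and 2, which leave out deep or unusual libraries, were added after seeing the data. Some genes that the rule named are not reported here.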

Additional observations from a re-analysis of the deposited data

Results flagged for a closer look

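For 71 of the 106 genes named in the text the difference between temperatures at 24 h was not the difference at 0 h, by the limma test of the change (adjusted p under 0.05 over all genes). The values that follow are that change in log2 units, 24 h minus 0 h; most of these genes were selected for a difference at 24 h, so the share is a result of that choice. For amino acid, fatty acid and respiratory genes the change was 2.56 (Cps1), 1.63 (Hal), 1.49 (Gls2), 1.05 (Kmo), 1.38 (Amdhd1), 2.03 (Crot), 2.26 (Fabp1), 1.79 (Eci1), 0.89 (Atp5c1) and 1.07 (Ndufa6). In sterol, lipid and bile acid genes it was 3.41 (Msmo1), 2.95 (Hmgcs1), -3.51 (Thrsp), -3.43 (Scd1), 1.70 (Elovl2), 1.11 (Insig2), 1.36 (Fads1), 1.97 (Abcb11) and 3.02 (Slco1b2). Among complement, clotting, carrier and acute phase genes it was 1.77 (C8a), 1.35 (Hc), 2.50 (Klkb1), 1.87 (Serpind1), 1.09 (F9), 1.01 (Rbp4), -3.11 (Serpina6), 2.59 (Orm2), 1.44 (Crp), 1.10 (Apcs), -1.59 (Steap4) and -2.20 (Cd14). Interferon and cytokine signalling genes changed by -3.20 (Gbp2), -1.78 (Gbp7), -2.16 (Gbp6), -1.25 (Cxcl9), 1.48 (Cxcl12), -3.17 (Tgtp1), -2.28 (Psmb10), -2.71 (Socs1), -0.73 (Stat3) and -1.13 (Sod2). Genes of temperature, stress and adrenergic response changed by -1.85 (Cirbp), -1.31 (Hnrnpdl), 2.68 (Hsph1), 1.94 (Fkbp4), 1.30 (Hspe1), 2.76 (Hspa1b), 2.95 (Adra1b), -1.83 (Cdkn1a), -1.26 (Hif1a), -1.76 (Pfkfb3) and -1.39 (Bhlhe40). In glucose, detoxification and peroxide genes the change was 2.64 (Slc2a2), 3.32 (Ppp1r3c), 1.24 (Pck1), -2.66 (Cyp1a2), 1.39 (Gstp1), -2.97 (Gsta4) and 1.29 (Cat). For markers of other liver cells it was 3.11 (Mrc1), 2.14 (Kdr), 3.28 (Clec4g), 2.57 (Lrat) and 3.35 (Ehd3). The remaining genes of wide difference changed by -4.67 (Car3), -3.44 (Tnfrsf23), -3.45 (Hbp1), 3.62 (Cacna1d), 3.94 (Enho), 3.69 (Fam167b) and 3.98 (Tnfaip8l1). The call on this change was lost under at least 1 of the 26 alternative settings for 12 of the 71 genes. For 7 of these, Apcs, Stat3, Pck1, Kdr, Cacna1d, Cat and Insig2, it was lost when any of several single libraries of 24 h was left out, and for Hc, Cirbp, Clec4g, Hbp1 and Ppp1r3c under other settings.

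A library stood apart from the other 4 of its group, by Dixon's test at 95%, in 16 of the 212 gene and group pairs examined; chance flags about 1 in 20. At 22 °C these were Cps1 at 925, Slco1b2 at 65.4, Orm2 at 947, Cxcl12 at 194 and Ppp1r3c at 4.06, all in replicate 5, with Cd14 at 1279.8 in replicate 2 and Cyp7a1 at 0.553 in replicate 4. At 30 °C they were Thrsp at 28.6 and Tgtp1 at 8.84 in replicate 5, Socs3 at 19.3 in replicate 2, Psmd3 at 42.0 in replicate 1, Hbp1 at 15.0 and Insig2 at 395 in replicate 4, and Tnfrsf23 at 4.40, Cyp7a1 at 4.49 and Mup12 at 78.6 in replicate 3.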

How the results depend on the processing

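Of 26 alternative settings, 25 kept the counts of higher and lower genes within 1.5 times of 864 and 758. With the replicate number as a block and the 24 h libraries fitted alone, the counts were 508 higher and 415 lower. With the replicate block in the fit of all 36 libraries they were 870 and 746. Deviations of same-numbered libraries correlated at -0.084 to 0.067, and those of differently numbered ones at -0.115 to 0.103. These values show no pairing by number but cannot exclude a shared day or batch, which the labels do not give. Leaving out each library in turn gave 657 to 963 higher and 525 to 820 lower genes, and 591 to 976 genes with a change from 0 h in place of 779. Without 30 °C replicates 2 and 5 the counts were 585 and 535. No rescaling moved the median of all genes by more than 0.05 log2 units. Of the 199 called genes that the rule named, 47 lost the call under at least 1 setting, and those described with values were taken from the rest except Slc3a1. Ccl7, Ccl9 and Il18bp, named without values, were among the 47. Of 50 counts of list members, 23 stayed within 1.5 times under all 26 settings, and for the other 27 at least 1 setting gave more or less than that. Of the genes not called, some changed sign. With single libraries left out, Cpt1a ranged from -0.11 to 0.16 (negative without 22 °C replicate 1 or 30 °C replicate 4 or 5), Alb from -0.020 to 0.21 (negative without 30 °C replicate 1), Socs3 from -0.23 to 0.15 (negative without 22 °C replicate 1 or 4 or 30 °C replicate 2) and Igfbp1 from -0.57 to 0.081 (positive without 30 °C replicate 3). Cpt1a was -0.0012 with depth as a covariate, and Socs3 was -0.0068 without both deepest libraries. The cause was not tested. Depth limits the low genes: a signal under about 3 reads cannot separate a low level from 0.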

Other observations

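Clock genes were lower at 30 °C in 6 of 18 tested members and higher in 0 (median -0.59), a count of 3 without 22 °C replicate 2. Nr1d2, the repressor REV-ERB beta, was 35.4, 32.3, 40.5, 33.1 and 23.004 at 22 °C and 9.60, 9.36, 12.0, 10.9 and 17.8 at 30 °C, groups that did not overlap (-1.40 ± 0.24 (SE, adjusted p = 5.6e-05)). Bhlhe40, a repressor of the clock that also answers to stress, was lower by -1.26 ± 0.24 (SE, adjusted p = 0.0003) and had differed by -1.28 ± 0.26 (SE, adjusted p = 0.0025) at 12 h. The labels give the hours after injection and not the hour of the day.

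Of 23 tested antioxidant genes of the NRF2 response 3 were higher and 3 lower, beside 9.93% higher and 8.71% lower over all tested genes. Nfe2l2, the gene of NRF2 itself, was 157, 132, 128, 124 and 155 at 22 °C and 91.9, 89.8, 86.3, 97.5 and 66.5 at 30 °C (-0.68 ± 0.15 (SE, adjusted p = 0.0011)), and Cat was higher, by 1.28 ± 0.27 (SE, adjusted p = 0.00092). Red cell markers were lower in 2 of 5, the globins Hba-a2 and Hbb-bt, and their summed signal was 583 to 1362 at 22 °C and 389 to 737 at 30 °C (exact two-sided permutation p = 0.063, 0.15 after adjustment over 12 library values). The part of blood left in the tissue was not tested.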
